A study of Brassica napus with 12 samples.

Results

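The opening gene blocks of chromosomes A02 and C02 of rapeseed, *Brassica napus*, were described over 2 pools of germplasm with and without submergence. A block was the first 500 genes of its chromosome, in the order of the number that follows G in the gene identifier, counting only those that reached 1 RPKM in 3 or more of the 12 libraries. RPKM is the read number scaled to gene length and to the mapped reads of the library. The 2 blocks thus held 1000 of the 57391 genes that reached this minimum, out of 109614 listed. The 2 blocks were chosen by earlier values of these same libraries, the submergence responses and their difference between the pools. All block values and counts below are therefore a description of these libraries. So are the p-values of single genes for the responses and for their difference.

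Polyadenylated RNA was sequenced from young seedlings, 1 week old and with flat cotyledons, with 3 biological replicates in each of 4 groups. The groups were resistant seedlings submerged in distilled water for 24 h, resistant controls, susceptible seedlings submerged for 24 h, and susceptible controls. Every sample mixed equal amounts of seedlings of 5 germplasm of its pool. The germplasm were not separated, so resistance cannot be told apart from any other property of the lines pooled, nor a lower level in all lines from a loss in a few of them. In bulk seedling RNA, fewer cells of a type and less RNA per cell cannot be told apart either. Relative depth, read from the lowest values, ran from 0.638 in the third resistant control to 1 in the first. Libraries were distinct, since 70.6% or more of the genes had unequal values in any pair of them.

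Rapeseed is an allotetraploid that carries the A subgenome of the turnip lineage and the C subgenome of the cabbage lineage. A02 and C02 are homoeologues, chromosomes that descend from a shared ancestor and still carry many genes as an A copy and a C copy in a similar order. Homoeologues of rapeseed can pair and exchange segments, and lines can differ in how many A and C copies of a segment they hold. Reads of near-identical copies can also be assigned to either one, which leaves the level of either copy uncertain. The RefSeq gene table held 0 of the 1000 identifiers, so genes are given by identifier and place in the order, and homoeologous gene pairs were not matched.

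The A02 block ran from BnaA02G0000300ZS to BnaA02G0081700ZS and held 500 of the 817 genes listed up to that identifier. The other 317 missed the expression minimum, and 117 of those were listed at 0 in every library. The C02 block ran from BnaC02G0000100ZS to BnaC02G0095400ZS and held 500 of 954 listed genes, with 201 of the 454 left out at 0 everywhere. Members at the margin of the minimum, with 1 RPKM in exactly 3 libraries, numbered 9 on A02 and 12 on C02, and 12 and 16 genes with 1 RPKM in 2 libraries fell just outside. Most members were at 1 RPKM or more in all 12 libraries, 376 on A02 and 341 on C02. The median of the genes' mean levels was 5.08 RPKM on A02 and 4.60 RPKM on C02. The blocks made up 22.4% of the tested genes of A02 and 19.4% of those of C02.

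The susceptible controls stood apart from the other 3 groups in both blocks, and in opposite directions. The level of a block was taken as the mean log2(RPKM + 1) of its 500 genes minus the median over all tested genes of the same library. On A02 it was 0.213, 0.202 and 0.321 in resistant submerged libraries, 0.217, 0.169 and 0.090 in resistant controls, 0.246, 0.190 and 0.233 in susceptible submerged libraries, and 0.385, 0.397 and 0.425 in susceptible controls. Each of the 3 susceptible controls thus lay above the 9 other libraries. Their relative depth was 0.726 to 0.785, against 0.638 to 1 in the others, and its part in the result was not tested. On C02 the level was 0.296, 0.154 and 0.105 in resistant submerged libraries, 0.208, 0.119 and 0.180 in resistant controls, -0.005, 0.224 and 0.005 in susceptible submerged libraries, and -0.266, -0.321 and -0.185 in susceptible controls. Here the susceptible controls lay below the 9 others, and the second susceptible submerged library lay well above its 2 replicates, within the resistant range. Without that library the C02 difference between the pools under water was 0.185 and the susceptible response 0.257 (log2).

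**Figure D1:**
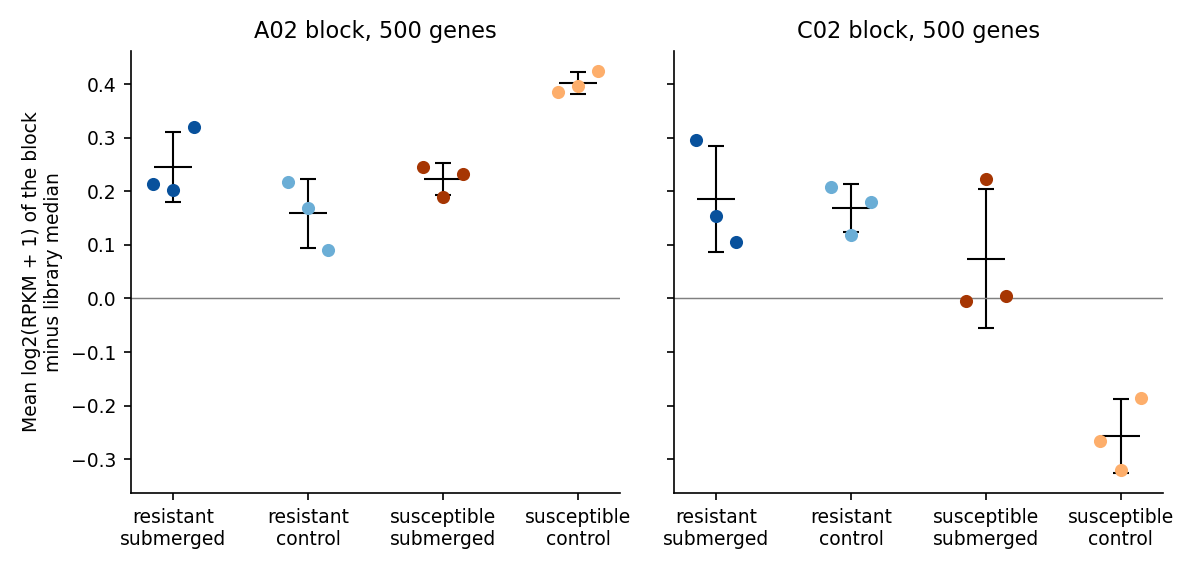
Level of the A02 block (left) and the C02 block (right) in each library, as mean log2(RPKM + 1) of the 500 genes minus the library median. Points are the 3 libraries of a group, bars the group mean ± SD, and the susceptible controls average 0.40 on A02 and -0.26 on C02.

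In controls, the pools differed in opposite directions on the 2 chromosomes. The A02 block stood at 0.16 ± 0.06 in resistant and 0.40 ± 0.02 in susceptible controls (log2 level, SD, n = 3 each), a difference of -0.24 ± 0.04 (SE). The C02 block stood at 0.17 ± 0.05 in resistant and -0.26 ± 0.07 in susceptible controls (log2 level, SD, n = 3 each), a difference of 0.43 ± 0.05 (SE). As ratios, these are 0.845 on A02 and 1.34 on C02. Under water the A02 blocks of the pools lay 0.02 ± 0.04 apart and the C02 blocks 0.11 ± 0.09 (log2, SE). As block means, both differences were thus close to or within the spread between libraries after submergence. Along the order the sign under water was mixed, with 10 of 20 bins of 25 genes above 0 on A02 and 13 of 20 on C02. Genes 1 to 50 stood at 0.26 on A02 and -0.23 on C02 under water, where they stood at 0.03 and 0.23 in controls (log2).

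The opposite shifts largely offset each other when the blocks were averaged. The mean of the A02 and C02 levels was 0.22 ± 0.04 in resistant submerged libraries, 0.16 ± 0.04 in resistant controls, 0.15 ± 0.05 in susceptible submerged libraries and 0.07 ± 0.04 in susceptible controls (log2, SD, n = 3 each). The C02 level minus the A02 level was -0.06 ± 0.15, 0.01 ± 0.07, -0.15 ± 0.16 and -0.66 ± 0.06 in the same groups (log2, SD, n = 3 each). The gap between the blocks was therefore near 0 in both resistant groups and over 0.6 in each susceptible control, which stood at -0.65, -0.719 and -0.61.

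Set beside the first 500 tested genes of the 17 other chromosomes, both blocks lay at the ends of the range. The control difference of -0.24 on A02 was below the lowest of the others, -0.18 on A09, and 0.43 on C02 was above the highest, 0.20 on C09. For the difference between the responses of the pools, A02 stood at 0.27, where the highest other was 0.20 on A09. C02 stood at -0.32, where the lowest other was -0.03 on C09. The blocks were chosen for such values, so their rank is no test.

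Along A02, the control difference was not seen in about the first 50 genes and was broken off after gene 509 by a short run of the opposite sign. In successive bins of 25 genes, 19 of 20 in the block had a mean difference below 0 in controls, and the exception was genes 1 to 25 at 0.09. Genes 26 to 50 stood at -0.03, as did the median of all tested genes. The lowest bin was the last, genes 476 to 500, at -0.44. Among the first 1000 tested genes, the run that departed most from the rest in controls was genes 53 to 509, at a mean of -0.25 against 0.14 elsewhere. Values in this search were limited to 1 log2, measured from the median of all tested genes, and runs had at least 20 genes. A search limited to the 500 members marked off genes 3 to 52, at 0.09 against -0.25 in the other members. Over the whole chromosome the run found began at gene 510, BnaA02G0083400ZS, and ended at gene 1337, with a mean of 0.19 against -0.13 elsewhere. The break between genes 509 and 510 was found in 5 of the 6 searches that left out 1 control, to within 1 gene. Without the third resistant control it was placed after gene 643. Past the short run the sign of the block returned for some bins, with mean differences of -0.25 in genes 551 to 575, -0.08 in genes 576 to 600 and -0.08 in genes 601 to 625 and medians of -0.28, -0.20 and -0.10. From genes 651 to 675 on, most bins up to gene 1000 lay above 0. The sign of the block recurred at the other end of A02. Over its last 400 tested genes the difference was -0.15 ± 0.03 in controls and -0.24 ± 0.04 under water (log2, SE), with no test.

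Along C02, the control difference held from the first bin and was weaker, but not gone, after gene 511. All 20 bins of 25 genes had a mean difference above 0 in controls, from 0.06 in genes 26 to 50 up to 0.99 in genes 451 to 475. The run that departed most within the first 1000 genes was genes 88 to 511, at 0.50 against 0.13 elsewhere. Over the whole chromosome, the rest was the run found, genes 512 to 2552 at 0.13 against 0.46 elsewhere, which again puts the break after gene 511, BnaC02G0097600ZS. The searches without 1 control put it between genes 511 and 519. Of the next 20 bins, 15 were still above 0, among them genes 576 to 600 at 0.37, genes 651 to 675 at 0.30 and genes 851 to 875 at 0.41, and the lowest was genes 526 to 550 at -0.37. The profile was uneven inside the block, since a search limited to the 500 members marked off genes 22 to 147, at 0.23 against 0.53 in the other members.

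The limit of 500 genes was no border in the values themselves. On A02 the median control difference was -0.40 over the last 10 members and -0.42 over the next 10 genes. On C02 it was 0.53 over the last 10 members and 0.31 over the next 10 genes (log2).

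**Figure D2:**
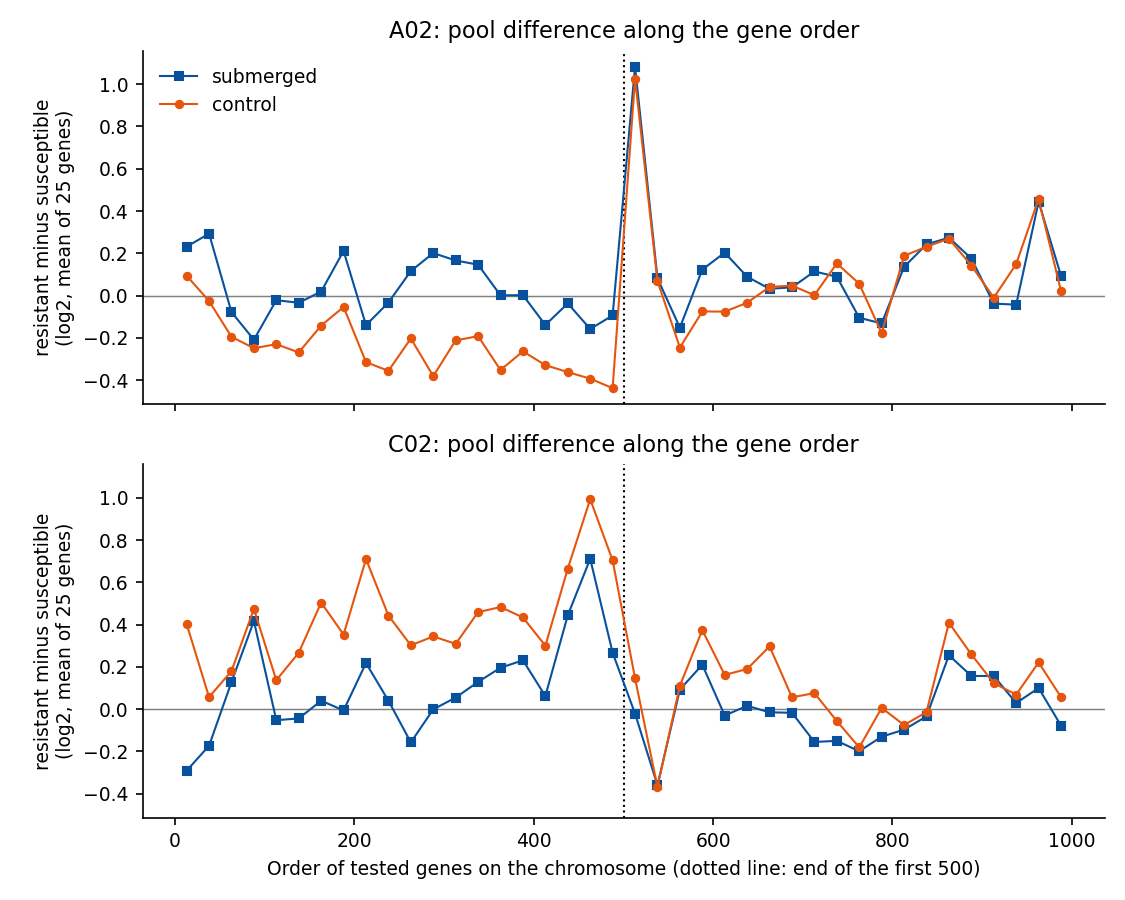
Resistant minus susceptible difference along the first 1000 tested genes of A02 (top) and C02 (bottom), as the mean log2 difference in bins of 25 genes after subtraction of each library's median, in submerged seedlings (blue squares) and in controls (orange circles). The control line lies below 0 in 19 of 20 bins of the A02 block and above 0 in all 20 of the C02 block, and both lines jump on A02, to 1.08 and 1.03 in genes 501 to 525.

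Short runs at the end of the blocks differed between the pools in both treatments. Within the C02 block, genes 443 to 466, BnaC02G0085800ZS to BnaC02G0089300ZS, formed the run that departed most in submerged libraries. Their mean level was 0.27, 0.15 and 0.18 in resistant submerged libraries and 0.41, 0.38 and 0.30 in resistant controls. In the susceptible pool it was -0.92, -0.79 and -0.88 in submerged libraries and -0.92, -0.74 and -0.91 in controls (log2, relative to the library median). All 24 genes were on the resistant side of 0 in both comparisons, with a mean difference of 1.06 ± 0.05 under water and 1.22 ± 0.07 in controls (SE). The pools thus differed here by a ratio of 2.09 under water and 2.33 in controls, whereas the block without these 24 genes differed by 1.04 and 1.31. This run was picked for its difference under water, so its sign and size there follow from the search and have no test. Members such as genes 445, 452 and 454 reached the expression minimum only through the resistant libraries.

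Past the A02 block, genes 510 to 531, BnaA02G0083400ZS to BnaA02G0086600ZS, also stood higher in the resistant pool under both treatments. The mean difference of these 22 genes was 1.48 ± 0.16 under water and 1.60 ± 0.07 in controls (log2, SE), and 20 and 21 of them lay above 0. Past the C02 block, a separate search marked off a run of the opposite sign, genes 520 to 566. These differed by -0.29 ± 0.02 under water and -0.31 ± 0.05 in controls (log2, SE), with 35 of 47 below 0 in each. Genes of the 2 runs were not matched as homoeologues. These runs are outside the blocks, were found by searching for the largest difference, and have no test.

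In the short run of C02, 2 genes were listed at 0 in all 6 susceptible libraries, and they and the other genes of this paragraph were picked out after their values were seen. BnaC02G0087200ZS, gene 452, was at 2.07, 1.85 and 1.49 RPKM in resistant submerged libraries and at 4.10, 2.71 and 2.24 RPKM in resistant controls. BnaC02G0087500ZS, gene 454, was at 1.92, 1.56 and 2.11 RPKM in resistant submerged libraries and at 3.90, 2.45 and 1.79 RPKM in resistant controls. Both reached the expression minimum only through the resistant libraries, so no test is given for them. BnaC02G0086000ZS, gene 445 of the same run, was at 14.4, 16.8 and 13.7 RPKM in resistant submerged libraries and listed at 0 in all 3 susceptible submerged ones, with 3.65, 4.60 and 3.89 RPKM in resistant controls and 0.114, 0 and 0.276 RPKM in susceptible controls. The reverse was seen once, in BnaC02G0038100ZS, gene 196. It was listed at 0 in all 3 resistant submerged libraries and was at 1.26, 1.37 and 1.25 RPKM in susceptible submerged ones, and its resistant controls stood at 0.709, 0.310 and 0 RPKM. No A02 member was under 0.1 RPKM in a whole group and at 1 RPKM or more in the same-treatment group of the other pool. On C02, 2 members in controls and 3 under water were near 0 in this way in the susceptible pool, and 0 and 1 in the resistant pool. Over all 57391 tested genes the counts were 160 and 110 in the susceptible pool, and 87 and 58 in the resistant pool. Such genes were thus not particular to the blocks, and their share was not tested.

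Single genes were tested with limma on log2(RPKM + 1) over all 57391 genes, with Benjamini-Hochberg adjustment and a threshold of 0.05. A fold change on this scale understates that of weak genes. In controls, the resistant pool was higher in 209 of the 500 C02 genes (41.8%) and lower in 6 (1.20%), where 10.9% and 5.02% of all tested genes were called. Of the 209, 68 differed by at least 2-fold. The calls grew denser along the block, with 25 higher genes among the first 100, 32, 45 and 47 in the following sets of 100, and 60 among genes 401 to 500. Of these 60, 19 lay in the short run of genes 443 to 466. On A02 the resistant controls were higher in 14 genes (2.80%) and lower in 48 (9.60%). The lower calls were also denser towards the end, with 3, 3, 10, 11 and 21 in successive sets of 100, whereas the higher calls numbered 5, 6, 2, 1 and 0. With median ratio scaling the A02 calls were 7 higher and 70 lower, where 7.70% and 6.26% of all tested genes were called.

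The A02 counts in controls moved with single libraries. Omitting the first or the third resistant control turned the 48 lower calls into 24 or 20, and omitting the first or the second susceptible control gave 30 or 28. The 14 higher genes became 5, 9, 6 and 5 without the same libraries. On C02 the 209 higher genes ranged from 142 to 226 over the libraries left out, and the 6 lower genes became 3 without the first resistant or the first susceptible control.

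The shift was spread over most genes of a block rather than carried by a few. After subtraction of the library medians, 83.8% of C02 members had a control difference above 0 and 79.0% of A02 members had one below 0. Over all tested genes, 46.6% lay above and 53.4% below. The median difference was 0.39 on C02 with quartiles of 0.13 and 0.65, and -0.25 on A02 with quartiles of -0.43 and -0.05 (log2). Over all tested genes the interquartile range was 0.50, similar to the 0.52 of C02 and wider than the 0.38 of A02. The shift was present at all expression levels. On C02 the median difference was 0.36, 0.39 and 0.41 in genes of low, middle and high mean RPKM, split into equal classes. On A02 the medians were -0.21, -0.24 and -0.33.

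**Figure D3:**
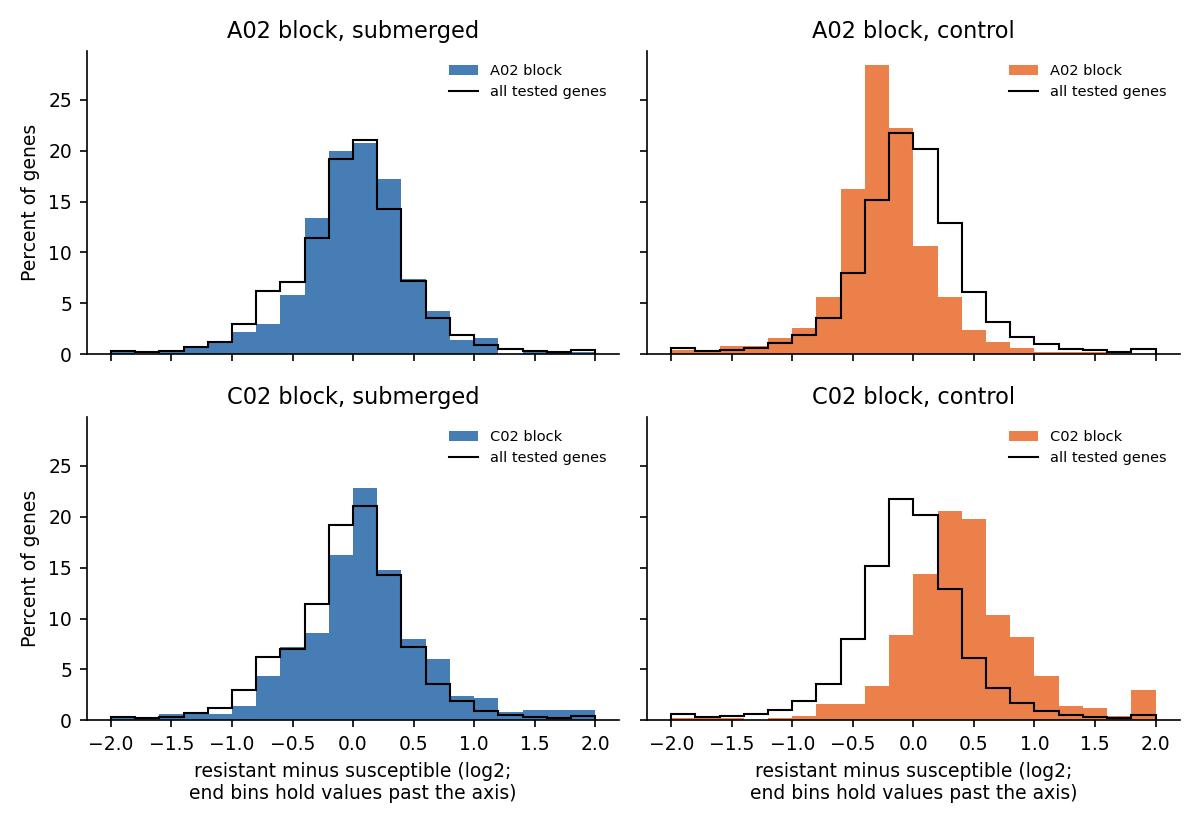
Percent of genes by resistant minus susceptible log2 difference, in bins of 0.2 after subtraction of library medians, for the A02 block (top) and the C02 block (bottom) in submerged seedlings (left) and controls (right). Filled bars are the 500 genes of a block and the black outline is all 57391 tested genes; in controls the A02 bars sit to the left of the outline (median -0.25) and the C02 bars to the right (median 0.39).

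Under water, the shares of genes called in the blocks lay nearer to those over all tested genes than in controls. On C02 the resistant pool was higher in 82 genes (16.4%) and lower in 29 (5.80%), where 11.7% and 4.67% of all tested genes were called. Of the 82, 16 lay in the short run of genes 443 to 466. On A02, 63 genes (12.6%) were higher and 26 (5.20%) lower, near the shares over all tested genes.  With median ratio scaling the calls were 64 higher and 42 lower on C02 and 44 higher and 36 lower on A02, against 8.41% and 7.10% of all genes. With quantile normalization A02 had 38 higher and 30 lower genes, against 7.98% and 5.07% of all genes.

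These counts also moved with single libraries. The 82 higher C02 calls became 43 or 49 on omitting the first or the second resistant submerged library, and 40 on omitting the first susceptible one. The 29 lower C02 genes became 15, 12 and 12 on omitting resistant submerged replicates 1, 2 and 3, and 14 and 18 on omitting susceptible submerged replicates 2 and 3. The 63 higher A02 genes became 34, 32 and 23 on omitting resistant submerged replicates 1, 2 and 3, and 37 on omitting susceptible submerged replicate 1. The 26 lower A02 genes became 8 and 12 on omitting resistant submerged replicates 1 and 2, and 11 and 14 on omitting susceptible submerged replicates 1 and 3.

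Control and submerged calls were compared as lists, since they come from different libraries. Of the 209 higher C02 genes, 69 (33.0%) were also called higher under water, and they made up 84.1% of the 82 called there. Over all tested genes the shared genes were 46.3% and 43.0% of the 2 lists. Of the 48 lower A02 genes, 9 (18.8%) were called lower under water as well, against 39.3% over all genes.

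The genes with the largest differences in the block direction on C02 were BnaC02G0093700ZS and BnaC02G0049800ZS. BnaC02G0093700ZS, gene 488, was at 35.7, 36.8 and 30.3 RPKM in resistant controls and at 4.06, 8.28 and 0.962 RPKM in susceptible controls, which do not overlap. The log2 difference was 2.96 ± 0.42 (SE; limma adjusted p = 0.00105). Under water it was at 14.0, 11.9 and 12.2 RPKM in resistant and 4.13, 5.34 and 7.68 RPKM in susceptible seedlings, a difference of 1.06 that missed the threshold (limma adjusted p = 0.109). BnaC02G0049800ZS, gene 255, was at 74.0, 19.5 and 50.4 RPKM in resistant controls and at 6.34, 6.42 and 4.81 RPKM in susceptible controls (limma adjusted p = 0.00133). The resistant controls were spread widely but all lay above the susceptible ones.

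Under water the leading C02 genes of the block direction were others. BnaC02G0087800ZS, gene 456 and part of the short run, was at 49.3, 31.2 and 27.3 RPKM in resistant and at 2.58, 2.79 and 3.10 RPKM in susceptible submerged seedlings. Its log2 difference was 3.23 ± 0.33 (SE; limma adjusted p = 0.000199), and it was also higher in resistant controls, by 2.05 (limma adjusted p = 0.00222). BnaC02G0017900ZS, gene 94, was at 21.4, 20 and 18.9 RPKM in resistant and at 1.79, 4.64 and 7.01 RPKM in susceptible submerged seedlings. It differed by 2.07 ± 0.29 (SE) under water and by 1.95 in controls (limma adjusted p = 0.00120 and 0.00127), so both genes held their difference in both treatments.

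The 6 C02 genes that departed from the block in controls lay scattered at places 30, 101, 259, 326, 417 and 475. All 6 were also on the susceptible side under water, and 5 (83.3%) were called there. Of all tested genes called lower in controls, 39.3% were. The strongest was BnaC02G0005700ZS, gene 30, at 0.567, 0.427 and 0.348 RPKM in resistant controls and 9.19, 3.74 and 12.7 RPKM in susceptible controls. Its log2 difference was -2.59 ± 0.34 in controls and -1.98 ± 0.34 under water (SE; limma adjusted p = 0.000669 and 0.00397). Under water it was at 5.51, 2.87 and 2.73 RPKM in resistant and 22.0, 16.1 and 13.7 RPKM in susceptible seedlings, so it rose in both pools (limma adjusted p = 0.00323 in resistant and 0.0314 in susceptible seedlings). BnaC02G0078700ZS, gene 417, was at 12, 9.88 and 11.4 RPKM in resistant controls and 18.8, 20 and 27.1 RPKM in susceptible controls, a log2 difference of -0.91 ± 0.16 (SE; limma adjusted p = 0.00339). It rose under water in both pools, to 48.2, 49.5 and 47.9 RPKM in resistant and 63.7, 81.2 and 59.7 RPKM in susceptible seedlings, by 2.04 and 1.60 on the log2 scale (limma adjusted p = 5.57e-06 and 3.16e-05).

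Of the 29 C02 genes lower in the resistant pool under water, BnaC02G0027900ZS, gene 141, had the largest difference after BnaC02G0005700ZS. It was at 11.7, 17.0 and 10.9 RPKM in resistant and at 31.4, 64.8 and 39.9 RPKM in susceptible submerged seedlings, a log2 difference of -1.67 ± 0.50 (SE; limma adjusted p = 0.0418). The call was lost in 11 of 19 alternatives, with an adjusted p of 0.0101 to 0.122 over them.

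**Figure D4:**
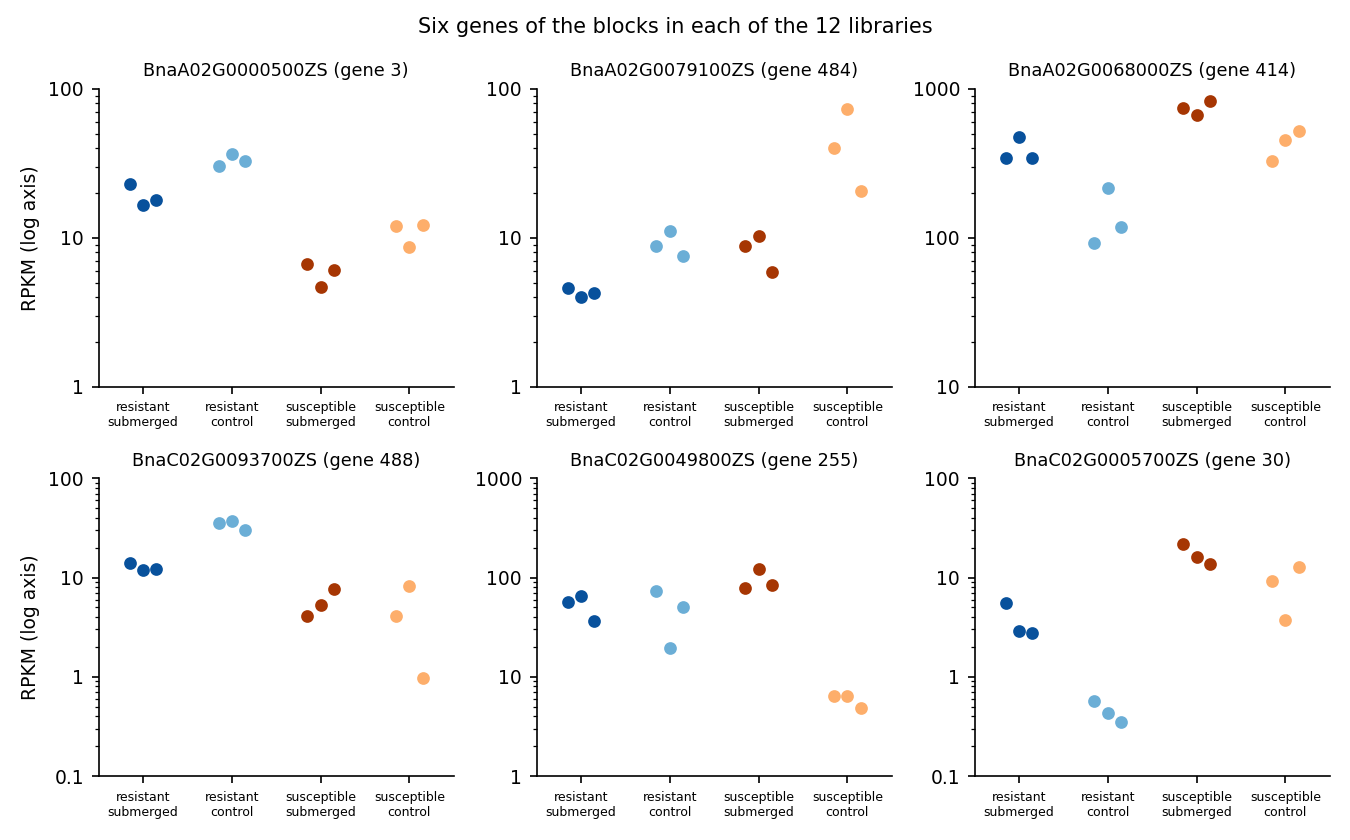
RPKM of 6 genes in the 12 libraries, on log axes, with the 3 libraries of each group as points. BnaA02G0000500ZS and BnaC02G0005700ZS go against the direction of their blocks, the first from the opening A02 stretch without the shift. BnaA02G0079100ZS, BnaA02G0068000ZS and BnaC02G0093700ZS follow their blocks. BnaC02G0049800ZS is low in the susceptible controls (4.81 to 6.42 RPKM) and not in the other groups.

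The leading A02 genes of the block direction were BnaA02G0079100ZS and BnaA02G0068000ZS. BnaA02G0079100ZS, gene 484, was at 8.88, 11.1 and 7.51 RPKM in resistant controls and at 39.9, 73.9 and 20.6 RPKM in susceptible controls. Its log2 difference was -2.01 ± 0.36 (SE; limma adjusted p = 0.00364), and under water it was -0.79 (limma adjusted p = 0.150). BnaA02G0068000ZS, gene 414, was at 92.2, 217 and 119 RPKM in resistant and at 328, 456 and 519 RPKM in susceptible controls, a log2 difference of -1.67 ± 0.29 (SE; limma adjusted p = 0.00327). It stayed lower in the resistant pool under water, at 346, 477 and 345 RPKM in resistant and 745, 674 and 831 RPKM in susceptible seedlings, by -0.96 (limma adjusted p = 0.0447).

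The 14 A02 genes called against the block direction in controls were all in its first 303 places, and 5 of them in the first 100. Those at places 3, 10 and 15 lay in the opening stretch, before gene 53, where the block shift was not seen. The log2 differences of the 14 ran from 0.48 to 1.53. All 14 were above 0 under water too, and 10 (71.4%) were called there. Of all tested genes called higher in controls, 46.3% were. BnaA02G0000500ZS, gene 3, lies before the run of genes 53 to 509. It was at 30.2, 36.8 and 33.1 RPKM in resistant and 12, 8.69 and 12.2 RPKM in susceptible controls, a log2 difference of 1.53 ± 0.17 (SE; limma adjusted p = 0.000228). Under water it was at 23.1, 16.7 and 17.9 RPKM in resistant and 6.64, 4.70 and 6.12 RPKM in susceptible seedlings, a difference of 1.57 (limma adjusted p = 0.000287). BnaA02G0043400ZS, gene 263, lies inside the run, at 10.9, 3.58 and 10.3 RPKM in resistant and 1.97, 2.43 and 3.13 RPKM in susceptible controls. Its call was weak (log2 difference 1.29 ± 0.39, SE; limma adjusted p = 0.0458) and was lost in 14 of 19 alternatives, with an adjusted p of 0.0104 to 0.157 over them.

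Under water, BnaA02G0040000ZS and BnaA02G0004400ZS had the largest positive differences on A02. BnaA02G0040000ZS, gene 243, was at 11.3, 12.6 and 24.8 RPKM in resistant and at 3.22, 2.97 and 2.29 RPKM in susceptible submerged seedlings, a log2 difference of 2.09 ± 0.26 (SE; limma adjusted p = 0.000648). BnaA02G0004400ZS, gene 32, was at 111, 141 and 91.5 RPKM in resistant and at 40.1, 24.1 and 33.3 RPKM in susceptible submerged seedlings (log2 difference 1.79 ± 0.29, SE; limma adjusted p = 0.00282). Both fell under water in the susceptible pool, by -2.02 and -1.71 (log2; limma adjusted p = 0.000171 and 0.000920). In the resistant pool BnaA02G0040000ZS fell too, by -0.86 (limma adjusted p = 0.0234), and the log2 difference of BnaA02G0004400ZS was -0.73, which missed the threshold (limma adjusted p = 0.0666).

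On the other side, BnaA02G0009000ZS, gene 57, was at 4.59, 7.10 and 11.2 RPKM in resistant and at 27.7, 13.8 and 26.1 RPKM in susceptible submerged seedlings. BnaA02G0025800ZS, gene 153, was at 17.0, 25.0 and 33.3 RPKM in resistant and at 47.0, 68.4 and 68.4 RPKM in susceptible ones. Their log2 differences were -1.46 ± 0.34 and -1.28 ± 0.38 (SE; limma adjusted p = 0.0149 and 0.0390), and the calls were lost in 2 and 8 of 19 alternatives, at an adjusted p of up to 0.0593 and 0.136.

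In the susceptible pool the blocks moved in opposite directions under water relative to the library median. Over all tested genes, the median log2 change under water was -0.22 for resistant and -0.19 for susceptible seedlings, and block levels are given relative to such a shift. The A02 block changed by 0.09 ± 0.05 in resistant and by -0.18 ± 0.02 in susceptible seedlings, and the C02 block by 0.02 ± 0.06 and by 0.33 ± 0.08 (log2 level under water minus control, SE, n = 3 each). The susceptible A02 libraries did not overlap between treatments, at 0.190 to 0.246 under water and 0.385 to 0.425 in controls. The susceptible C02 libraries did not overlap either, at -0.005 to 0.224 under water and -0.321 to -0.185 in controls.

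In the susceptible pool, 228 A02 genes (45.6%) were lower and 44 (8.80%) higher under water, where 28.6% and 12% of all tested genes were called. On C02 the split was the other way round, with 110 genes (22.0%) higher and 56 (11.2%) lower. In the resistant pool, 115 A02 genes (23.0%) were lower and 68 (13.6%) higher, and 142 C02 genes (28.4%) were lower and 60 (12%) higher, where 26.7% and 11.9% of all tested genes were called. With median ratio scaling the susceptible pool had 63 higher and 138 lower A02 genes and 176 higher and 30 lower C02 genes, against 18.8% and 16.2% of all genes. The resistant pool then had 103 higher and 71 lower A02 genes and 81 higher and 69 lower C02 genes, against 17.4% and 14.7%. Quantile normalization gave 145 higher and 22 lower C02 genes in the susceptible pool, against 15% and 17.5% of all genes. In the resistant pool it gave 94 higher and 79 lower A02 genes and 76 higher and 77 lower C02 genes, against 15.3% and 16.4%. The 56 lower C02 genes of the susceptible pool became 34 without control replicate 3 and 37 without its first submerged library.

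The falls of the pools overlapped unevenly. The pools share no library, but here too the spread of each gene was estimated once from all 12 libraries. Of the C02 genes that fell in the resistant pool, 44 (31%) also fell in the susceptible one, and over all tested genes 69.3% did. Of the A02 genes that fell in the resistant pool, 104 (90.4%) also fell in the susceptible one. They made up 45.6% of its 228 falls, against 64.7% over all genes. For rises, 50 of the 60 resistant C02 genes (83.3%) and 36 of the 68 resistant A02 genes (52.9%) rose in the susceptible pool too, and 72.6% did over all genes. The susceptible lists held 110 rises on C02 and 44 on A02.

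**Figure D5:**
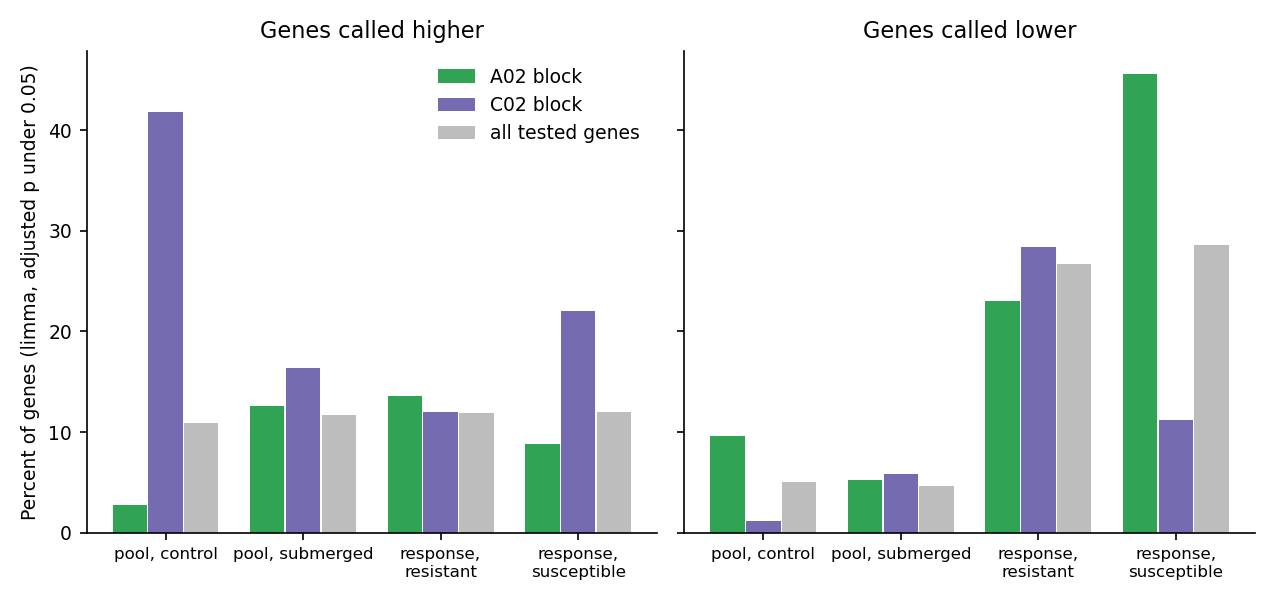
Percent of genes called higher (left) and lower (right) by limma at an adjusted p under 0.05 in the A02 block, the C02 block and all tested genes, for the resistant minus susceptible difference in controls and under water and for the submerged minus control response of each pool. C02 has the tallest bar for the pool difference in controls (41.8% higher), and A02 for falls of the susceptible pool (45.6%).

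On A02 the genes with the largest rise and the largest fall were the same in both pools. BnaA02G0020200ZS, gene 122, was at 19.5, 20 and 16.4 RPKM in resistant submerged seedlings and 1.96, 1.12 and 1.05 RPKM in resistant controls, and at 14.1, 11.0 and 12.1 RPKM in susceptible submerged seedlings and 0.587, 0.671 and 0.517 RPKM in susceptible controls. It rose by 3.06 ± 0.15 in resistant and 3.07 ± 0.15 in susceptible seedlings (log2, SE; limma adjusted p = 3.87e-07 and 6e-07). BnaA02G0072900ZS, gene 445, fell most on A02, to 1.95, 1.90 and 0.395 RPKM in resistant submerged seedlings, against 11.9, 18.8 and 13.3 RPKM in their controls. In the susceptible pool it was at 0.716, 0.467 and 0.595 RPKM under water and 15.3, 20.9 and 6.13 RPKM in controls (log2 changes -2.75 and -3.10; limma adjusted p = 0.000283 and 0.000124).

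On C02 the largest fall was also common to both pools. BnaC02G0071800ZS, gene 372, was at 30.9, 44.8 and 36.3 RPKM in resistant submerged seedlings and 411, 277 and 415 RPKM in resistant controls. In the susceptible pool it was at 45.0, 36.5 and 27.7 RPKM under water and 388, 120 and 334 RPKM in controls (log2 changes -3.26 and -2.77; limma adjusted p = 8.08e-05 and 0.000234). BnaC02G0041900ZS, gene 220, rose most in the resistant pool, to 34.5, 22.3 and 23.3 RPKM, against 3.03, 3.27 and 3.41 RPKM in controls, by 2.68 ± 0.21 (log2, SE; limma adjusted p = 5.2e-06). It also rose in the susceptible pool, to 18, 23.5 and 18.5 RPKM, against 1.88, 1.38 and 0.707 RPKM in controls, by 3.20 (limma adjusted p = 1.97e-06).

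The largest C02 rise of the susceptible pool differed from the response of the resistant pool (log2 difference -3.50 ± 0.56, SE; limma adjusted p = 0.0338, lost in 10 of 18 alternatives). BnaC02G0049800ZS was at 56.6, 64.5 and 36.6 RPKM in resistant submerged seedlings and 74.0, 19.5 and 50.4 RPKM in resistant controls, a log2 change of 0.28 (limma adjusted p = 0.591). In the susceptible pool it rose to 78.3, 122 and 84.2 RPKM, against 6.34, 6.42 and 4.81 RPKM in controls, by 3.78 ± 0.40 (log2, SE; limma adjusted p = 4.06e-05). Its level in susceptible seedlings was thus below that of the resistant pool in controls and, by values that missed the threshold, above it under water (log2 difference -0.85; limma adjusted p = 0.164).

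The difference between the responses of the pools had the same sign along each whole block. It was above 0 in all 20 bins of 25 genes on A02, from 0.04 to 0.58, and below 0 in all 20 on C02, from -0.69 in genes 1 to 25 to -0.05 in genes 51 to 75. The sign did not end with the C02 block, since 18 of the next 20 bins were below 0 as well, down to -0.311. On A02, 12 of the next 20 bins were above 0. Block means were 0.27 ± 0.06 on A02 and -0.32 ± 0.11 on C02 (log2, SE). Of the A02 members, 77.4% lay above 0, and of the C02 members, 82.2% lay below 0. On A02 the run that departed most over the whole chromosome was genes 7 to 639, at 0.24 against -0.05 elsewhere, which ends past the control break at gene 509, but before the control break at gene 643 found without resistant control replicate 3. On C02 the search over the whole chromosome did not mark the opening block. It found genes 2319 to 2573, near the other end, at 0.345 against -0.12 elsewhere. Only within the first 1000 genes was the C02 run one of the block, genes 130 to 514, at -0.35 against -0.13 elsewhere.

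At the level of single genes this difference was seldom called. On A02, 0 of 500 genes passed the threshold of limma in either direction, though 119 had an unadjusted p under 0.05 with a positive and 8 with a negative difference. On C02, 1 gene was called positive, BnaC02G0086000ZS, which reached the expression minimum only through the resistant libraries, and 4 were called negative, with 7 and 126 at an unadjusted p under 0.05. Over all tested genes 0.192% were called positive and 0.141% negative. Of the 4 negative C02 genes, 3 lay in the first 18 places of the block, BnaC02G0001100ZS, BnaC02G0001500ZS and BnaC02G0002500ZS, and the other was BnaC02G0049800ZS. The 4 became 0 without resistant control 3, resistant submerged library 1 or 3, or susceptible control 1, and 7 without the second susceptible control. They were 1 or 2 without each of the 7 others, and 0 with the replicate number as a block.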

How the data were processed

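Seedling RNA was sequenced in 12 libraries, 3 biological replicates in each of 4 groups. The authors deposited 1 table of RPKM values per gene and library. HISAT2 and StringTie were used, per the submitters' processing notes; versions, build and gene annotation were not given in the sources used here. RPKM values are not counts, so no count model was used.

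Genes reaching 1 RPKM in 3 or more libraries were fitted as log2(RPKM + 1) with limma 3.58.1 (R 4.3.3), with 1 mean per group, all 12 libraries and a trended prior. Benjamini-Hochberg adjustment ran over all 57391 tested genes. The method was tested on simulated data. Block levels, bins of 25 genes and the search for runs were computed in Python 3.11.15 from log2 values after subtraction of each library's median. Named genes were those of largest difference per block and comparison, that passed the threshold of 0.05, averaged 5 RPKM or more and did not overlap between the groups (overlap was allowed for the difference of the responses). Alternatives covered the pseudocount, the filter, the scaling, the replicate number as a block, the groups fitted, the libraries left out, and the block length and search range. The search over the first 750 and first 1000 genes, the block up to its break and the C02 block without its short run were added after seeing the data. The blocks, members and lists were chosen with earlier results of these data known. Read totals were not used here, so no counting intervals are given.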

Additional observations from a re-analysis of the deposited data

Results flagged for a closer look

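The difference between the responses of the pools was called in 5 C02 genes (limma, adjusted p under 0.05). These were 4 negative calls (0.8%) and 1 positive call (0.2%), where 0.141% and 0.192% of all tested genes were called. The blocks were chosen from such differences, so the calls and their p-values describe these libraries and are no independent test. Apart from BnaC02G0049800ZS the genes were named only after their values were seen.

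BnaC02G0001100ZS, gene 7, was at 27.3, 24.0 and 23.5 RPKM in resistant submerged seedlings and 23.2, 27.1 and 30.4 RPKM in their controls, and at 31.4, 40.7 and 40.5 RPKM in susceptible submerged seedlings and 13.9, 14.5 and 11.6 RPKM in their controls. The difference of the responses was -1.52 (log2; limma adjusted p = 0.0226), and the call was lost in 5 of 18 alternatives. The susceptible controls lay below the other 9 libraries.

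BnaC02G0001500ZS, gene 9, had a difference of -0.94 (limma adjusted p = 0.0441; lost in 15 of 17 alternatives). It was at 2.61, 2.33 and 2.08 RPKM in resistant submerged seedlings and 4.64, 5.15 and 5.81 RPKM in their controls, against 2.56, 2.70 and 3.22 RPKM and 2.94, 2.60 and 2.54 RPKM in the same groups of the susceptible pool. Here the resistant controls lay above the others.

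BnaC02G0002500ZS, gene 18, had a difference of -1.38 (limma adjusted p = 0.0412; lost in 14 of 17 alternatives), with susceptible controls at 0.817, 1.31 and 1.46 RPKM, below the other groups. BnaC02G0049800ZS, gene 255, had a difference of -3.50 (limma adjusted p = 0.0338; lost in 10 of 18 alternatives).

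BnaC02G0086000ZS, gene 445, had the opposite sign, 1.83. All 3 susceptible submerged libraries were listed at 0 and their controls at 0.114, 0 and 0.276 RPKM. The gene reached the expression minimum only through the resistant libraries, where it is high, so its call is given with no p, and it was lost with a pseudocount of 0.1.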

How the results depend on the processing

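Of the block values and counts, 509 stayed near the reported one and 92 moved. The sign turned in 2 block levels that lay close to 0: the A02 pool difference under water (0.022) was -0.016 without the third resistant submerged library, and the resistant C02 response (0.016) was -0.023 with a pseudocount of 0.1, -0.028 with quantile normalization, -0.012 over the first 250 genes, and -0.009 and -0.039 on omitting resistant control 2 or resistant submerged library 1. The replicate numbers did not pair the libraries: same-number correlations of the deviations from the group means ran from -0.315 to 0.39. With the number as a block, the negative C02 interaction calls were 0, and no other count moved by over 1.5 times. Among genes with a mean of at least 5 RPKM, fewer members were tested. The pool calls were then 7 higher and 24 lower (A02) and 98 higher (C02) in controls, and 30 and 14 (A02) and 36 and 13 (C02) under water. The responses had 37 rises and 60 falls (A02) and 36 and 52 (C02) in the resistant, and 18 and 116 (A02) and 62 and 21 (C02) in the susceptible pool. The C02 interaction had 0 and 2 calls, and the C02 levels responded by 0.133 and 0.454. Median ratio scaling gave 7 higher A02 genes in controls, 103 and 71 A02 and 69 falling C02 genes in the resistant response, and 138 falling A02 and 176 and 30 C02 genes in the susceptible one. Quantile normalization gave 38 higher A02 genes under water and 77 and 22 falling C02 genes. Fitting only the groups compared gave 9 and 30 A02 calls in controls. Without a filter the interaction had 1 positive A02 and 2 negative C02 calls. A pseudocount of 0.1 gave 0 and 2 C02 interaction calls, A02 levels of -0.296 (controls), -0.247 (susceptible response) and 0.352 (interaction), and C02 levels of 0.589 and 0.207 (pools in controls and under water). The first 250 genes of A02 stood at -0.174 in controls and 0.198 for the interaction, and the first 750 at -0.132, with -0.103 for the susceptible response and 0.204 for the interaction; those of C02 stood at 0.317 in controls. Searching the first 500 genes alone placed the break after gene 52 (A02) and 147 (C02), and the submerged libraries placed it after gene 1744 and 2318; the cause was not tested.

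Leaving out each library in turn gave these ranges. In controls, A02 had 5 to 16 higher and 20 to 54 lower genes and C02 142 to 226 and 3 to 9. Under water, A02 had 23 to 68 and 8 to 26 and C02 40 to 102 and 12 to 30. The resistant response had 50 to 72 rises and 82 to 117 falls on A02 and 46 to 65 and 99 to 149 on C02. The susceptible one had 38 to 44 and 186 to 228 on A02 and 83 to 108 and 34 to 65 on C02. The C02 interaction had 1 positive and 0 to 7 negative calls. The breaks lay at 508 to 643 (A02) and 511 to 519 (C02). A02 levels ran from -0.273 to -0.209 in controls, -0.016 to 0.044 under water, 0.048 to 0.115 and -0.191 to -0.163 for the resistant and susceptible responses, and 0.228 to 0.295 for the interaction. The C02 levels ran from 0.394 to 0.462, 0.055 to 0.185, -0.039 to 0.056, 0.257 to 0.371 and -0.371 to -0.241 in the same order. With 3 libraries a group, small differences of single genes could not be called.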

Other observations

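A run of 255 genes near the other end of C02, genes 2319 to 2573, had its larger pool difference under water, unlike the opening block. The resistant pool stood above the susceptible pool by 0.55 ± 0.11 under water and by 0.20 ± 0.07 in controls (log2, SE, n = 3 each). Mean levels were 0.19 in resistant submerged seedlings, 0.12 in resistant controls, -0.36 in susceptible submerged seedlings and -0.08 in susceptible controls. The run was found by searching these libraries and has no test.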
